A study of Mus musculus with 4 samples.

Results

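Tnfrsf4, Tnfrsf9, Tnfrsf18, Icos, Cd28 and Cd27 encode 6 costimulatory receptors of T cells, known in the same order as OX40, 4-1BB, GITR, ICOS, CD28 and CD27. They were taken by symbol from the 27998 genes of 4 mouse single-cell libraries. OX40, 4-1BB, GITR and CD27 belong to the TNF receptor superfamily and signal through TRAF adaptors to NF-kB. CD28 and ICOS belong to the immunoglobulin superfamily and recruit PI3-kinase. All 6 add a second signal to that of the T cell receptor when they meet a ligand on an antigen-presenting cell. In tumors several of them are known from activated and regulatory T cells, and OX40, 4-1BB and GITR are targets of agonist antibodies.

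The series holds 1 library each of the groups aC+C, Ac, C and IgG, whose names the labels do not spell out. The mice were 6 to 8 weeks old, an entry placed in the genotype field, and no strain, tumor model, dose or time was given in the sources used here. The titles name immune cells infiltrating a tumor, whereas goblet cells sorted from the gut stand under cell type and in the protocol. Muc2, which encodes the mucin of goblet cells, was at 0 in all 4 lymphocyte gates described below. Those gates pick cells by lymphocyte genes, so this does not show whether the libraries also hold goblet cells. The gated cells are treated here as what the titles call them.

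Each barcode with at least 1000 UMIs (unique molecular identifiers, 1 per captured transcript) and at most 10% of UMIs from mitochondrial genes was placed by a few defining genes, leaving out barcodes with myeloid transcripts. Foxp3 T cells had Cd3 and Foxp3, the transcription factor of regulatory T cells. CD4 T cells had Cd3 and Cd4 without Foxp3, and CD8 T cells had Cd3, Cd8a and Cd8b1. A regulatory T cell with Cd4 whose Foxp3 was not captured would fall into the CD4 T gate, and how many did was not tested. NK cells had Ncr1 or Klrb1c with little or no Cd3. The gates held 872 Foxp3 T, 818 CD4 T, 1603 NK and 3583 CD8 T cells of 15755 cells in all, with 164 to 298, 186 to 220, 217 to 510 and 568 to 1108 cells per library. C1q macrophages, which should lack most of these receptors, gave the level of background (2051 cells). Median UMIs per cell ran from 4999.5 to 6791.5 in Foxp3 T cells and from 4892.5 to 5971 in CD4 T cells, against 9545 to 12808.5 in NK cells and 10734 to 13138.5 in CD8 T cells. Any pair of libraries shared 2 to 7 cell barcodes. Levels are CPM, the UMIs that a gene had among each 1000000 UMIs summed over a gate in 1 library.

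The libraries of C and IgG stood apart from those of aC+C and Ac in the T cell gates. Foxp3 T cells with at least 2 UMIs of the NK genes Ncr1 and Klrb1c made up 1.60% of the gate in aC+C and 0.671% in Ac, but 8.56% in C and 10.4% in IgG. The summed level of 9 NK marker genes, all 9 detected, was 224 CPM in aC+C, 202 CPM in Ac, 1394 CPM in C and 1858 CPM in IgG in that gate. That of 8 dendritic cell markers, all 8 detected, was 554 CPM in aC+C, 833 CPM in Ac, 1725 CPM in C and 1529 CPM in IgG. The ratios between libraries in Foxp3 T cells are therefore given below also for cells with at most 1 UMI of Ncr1 and Klrb1c. That limit is not set on the dendritic cell markers.

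On the mouse genome build GRCm38 (GRCm38.p6, the same chromosomes as mm10), Tnfrsf4 lies at chr4:156013595-156016613 and Tnfrsf18 at chr4:156026322-156028894. They are 9708 bases apart, with no other protein-coding gene between them. Tnfrsf9 is on the same chromosome at chr4:150920155-150946104. Cd28 (chr1:60746388-60773359) and Icos (chr1:60960773-61000322) flank Ctla4, which encodes the inhibitory receptor for the ligands of CD28. Cd27 is at chr6:125232620-125237136. Tnfrsf4 overlaps Sdf4, Tnfrsf18 overlaps Gm16008 and Cd27 overlaps E130112N10Rik and Mir8113 in the annotation, and how reads in the overlaps were counted was not checked.

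RefSeq promoter windows (GRCm38.p6, 250 bases before a start to 50 after it) are shown for the neighbours Tnfrsf4 and Tnfrsf18, whose levels had the same order of gates, and for the 2 annotated starts of Tnfrsf9, whose level had another. All 4 are on the plus strand and are written 5′ to 3′. Capitals mark matches, on either strand, to the core letters of NFAT (TTTCC), AP-1 (TGANTCA) and forkhead factors (TGTTTA) and to the NF-kB consensus. The windows are, in order, chr4:156013445-156013744, chr4:156026072-156026371, chr4:150919905-150920204 and chr4:150927749-150928048.
Tnfrsf4: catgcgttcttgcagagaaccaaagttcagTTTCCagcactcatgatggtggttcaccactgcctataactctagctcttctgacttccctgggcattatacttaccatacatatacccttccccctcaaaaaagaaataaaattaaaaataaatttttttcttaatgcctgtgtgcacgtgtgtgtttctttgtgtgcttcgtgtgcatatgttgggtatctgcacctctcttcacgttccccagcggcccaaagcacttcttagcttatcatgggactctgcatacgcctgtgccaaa
Tnfrsf18: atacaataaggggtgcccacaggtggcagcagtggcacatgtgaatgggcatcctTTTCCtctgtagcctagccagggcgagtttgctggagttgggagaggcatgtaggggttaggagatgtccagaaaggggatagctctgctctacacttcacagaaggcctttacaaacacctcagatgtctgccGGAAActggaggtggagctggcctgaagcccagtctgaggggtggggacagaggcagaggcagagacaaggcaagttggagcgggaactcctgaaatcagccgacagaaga
Tnfrsf9, first start: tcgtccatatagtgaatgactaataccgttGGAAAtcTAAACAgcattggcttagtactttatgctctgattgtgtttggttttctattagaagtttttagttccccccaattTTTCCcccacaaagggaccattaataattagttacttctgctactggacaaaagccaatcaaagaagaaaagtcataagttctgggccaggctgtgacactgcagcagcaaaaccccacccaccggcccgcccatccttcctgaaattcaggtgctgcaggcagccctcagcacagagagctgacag
Tnfrsf9, second start: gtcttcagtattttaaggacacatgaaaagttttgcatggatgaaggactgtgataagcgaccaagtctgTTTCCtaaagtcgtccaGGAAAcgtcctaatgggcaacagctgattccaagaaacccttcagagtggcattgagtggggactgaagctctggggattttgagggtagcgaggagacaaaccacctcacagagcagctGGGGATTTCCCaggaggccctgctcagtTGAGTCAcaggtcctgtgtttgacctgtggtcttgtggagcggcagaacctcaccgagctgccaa

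The window of the second Tnfrsf9 start held an NF-kB match, with an NFAT core inside it, and an AP-1 match between that and the start. The NF-kB match was present in 8.46% and the AP-1 match in 7.81% of all 32851 promoter windows. The NFAT core, found in all 4 windows shown, was present in 61.3% of all windows, and the forkhead core, found at the first Tnfrsf9 start, in 13.4%. The Cd27 window held 1 NFAT core and no other match. These are matches of letters only, and counts from the 3′ ends of transcripts do not show which start was used.

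Tnfrsf4 had its highest level in Foxp3 T cells, followed by CD4 T and CD8 T cells. In Foxp3 T cells it was 2049 CPM in aC+C, 2242 CPM in Ac, 1549 CPM in C and 1775 CPM in IgG. CD4 T cells had 595 CPM in aC+C, 1057 CPM in Ac, 737 CPM in C and 1015 CPM in IgG. In CD8 T cells it was 133 CPM in aC+C, 113 CPM in Ac, 135 CPM in C and 110 CPM in IgG. The 3 T cell gates did not overlap in any library. NK cells had 1.83 to 3.50 CPM, a range that overlapped the 1.84 to 2.64 CPM of C1q macrophages, so no Tnfrsf4 above background was detectable there. After each cell was thinned to 1000 UMIs, 71.6% to 80.9% of Foxp3 T cells had a Tnfrsf4 UMI, against 35.6% to 51.0% of CD4 T cells, 0.196% to 0.461% of NK cells, 7.85% to 10.6% of CD8 T cells and at most 0.177% of macrophages. Unthinned, the share was 96.4% to 98.8% in Foxp3 T cells and 38.4% to 49.8% in CD8 T cells.

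Tnfrsf18 and Icos had the same order of gates as Tnfrsf4, but remained well above background in NK cells. Tnfrsf18 was at 1371 CPM in aC+C, 1518 CPM in Ac, 1086 CPM in C and 1143 CPM in IgG in Foxp3 T cells. CD4 T cells had 645 CPM in aC+C, 1000 CPM in Ac, 652 CPM in C and 928 CPM in IgG. CD8 T cells had 251 to 282 CPM, NK cells 130 to 144 CPM and macrophages 4.98 to 10.2 CPM. The ranges of the gates did not overlap. Icos was at 1028 CPM in aC+C, 1163 CPM in Ac, 860 CPM in C and 870 CPM in IgG in Foxp3 T cells. CD4 T cells had 601 CPM in aC+C, 694 CPM in Ac, 584 CPM in C and 747 CPM in IgG. CD8 T cells had 169 to 242 CPM, NK cells 72.4 to 91.9 CPM and macrophages 0.660 to 1.60 CPM, again with no overlap between gates.

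Tnfrsf9 was also highest in Foxp3 T cells, but NK, CD8 T and CD4 T cells had similar levels of it. Foxp3 T cells had 1245 CPM in aC+C, 1368 CPM in Ac, 913 CPM in C and 917 CPM in IgG. NK cells had 541 CPM in aC+C, 522 CPM in Ac, 483 CPM in C and 529 CPM in IgG. CD8 T cells had 490 CPM in aC+C, 453 CPM in Ac, 387 CPM in C and 420 CPM in IgG. CD4 T cells, with 384 CPM in aC+C, 552 CPM in Ac, 280 CPM in C and 441 CPM in IgG, overlapped both. Within each library Tnfrsf9 in summed UMIs was higher in NK than in CD8 T cells. The median over cells was lower in NK cells in aC+C (316.6 against 364.8 CPM), Ac (287.8 against 326.3 CPM) and IgG (331.1 against 341.1 CPM). In C it was even (276.7 against 276.2 CPM). The mean over cells was higher in NK cells in Ac, C and IgG and even in aC+C (454.3 against 454.9 CPM). A Tnfrsf9 UMI was found after thinning in 52.4% to 67.0% of Foxp3 T, 20.5% to 27.5% of CD4 T, 29.0% to 32.3% of NK and 28.2% to 31.8% of CD8 T cells, against 2.47% to 8.29% of macrophages.

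Cd28, which T cells carry before activation, was nearly even between the Foxp3 T and CD4 T gates. Foxp3 T cells had 379 CPM in aC+C, 379 CPM in Ac, 305 CPM in C and 324 CPM in IgG. CD4 T cells had 327 CPM in aC+C, 401 CPM in Ac, 389 CPM in C and 376 CPM in IgG, a range that overlapped that of Foxp3 T cells. CD8 T cells had 163 to 178 CPM and NK cells 74.4 to 129 CPM, with macrophages at 0.470 to 1.49 CPM.

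Cd27, whose product binds CD70, was low in CD4 T cells. Foxp3 T cells had 292 CPM in aC+C, 313 CPM in Ac, 190 CPM in C and 204 CPM in IgG. CD4 T cells had 69.9 CPM in aC+C, 42.9 CPM in Ac, 73.0 CPM in C and 51.1 CPM in IgG. That range overlapped the 50.7 to 59.1 CPM of NK cells and lay below the 130 to 145 CPM of CD8 T cells. The CD4 T values rest on 59 to 104 UMIs per library.

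**Figure D1:**
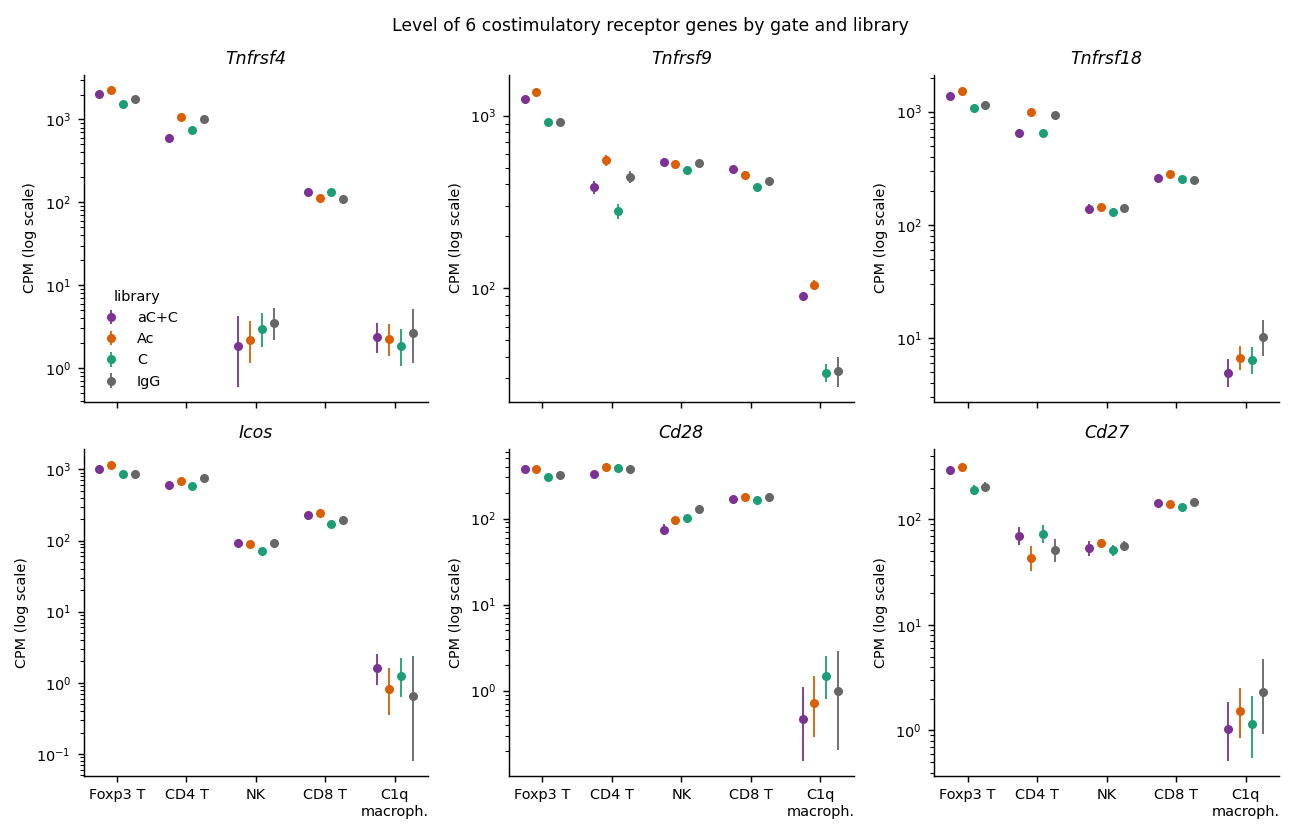
Level of each gene in CPM (log scale) in the 4 gates and in C1q macrophages. Each point is 1 library, ordered aC+C, Ac, C, IgG within a gate, and bars are exact 95% Poisson intervals for counting error. Foxp3 T cells lead for 5 genes, Cd28 is even between Foxp3 T and CD4 T cells, and Tnfrsf4 in NK cells lies with the macrophages.

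The gates were compared with edgeR's quasi-likelihood test on the 16 sums of UMIs (4 gates in 4 libraries), with the library as a block and Benjamini-Hochberg adjustment over 9857 genes. Each library is of another group, so the spread between libraries includes any difference between groups, and nothing in the labels says how many animals a library holds.

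Foxp3 T cells had more of 5 of the 6 receptors than CD4 T cells. Of all genes tested in that comparison, 10.9% were called higher and 8.56% lower. Cd27 was higher by a log2 fold change of 2.01 ± 0.17 (SE, adjusted p = 1.002e-06 by edgeR), Tnfrsf9 by 1.38 ± 0.12 (adjusted p = 1.326e-06) and Tnfrsf4 by 1.12 ± 0.15 (adjusted p = 0.0001004). The differences of Tnfrsf18 (0.63 ± 0.10, adjusted p = 0.0003774 by edgeR) and Icos (0.53 ± 0.09, adjusted p = 0.0004681) were smaller. These last 2 calls were lost when barcodes with Foxp3 and more than 1 Cd8 UMI were let into the gate (adjusted p = 0.3732 for Tnfrsf18 and 0.5121 for Icos by edgeR). Such barcodes had medians of 16571 to 23877 UMIs. For Cd28 the log2 fold change was -0.15 ± 0.12 (adjusted p = 0.4656 by edgeR).

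Against CD8 T cells, Foxp3 T cells had more of all 6 receptors, where 23.8% of all genes were called higher and 23.2% lower. Tnfrsf4 differed by 3.82 ± 0.17 on the log2 scale (adjusted p = 1.838e-10 by edgeR), a 14.1-fold difference. Tnfrsf18 differed by 2.16 ± 0.10, Icos by 2.12 ± 0.09, Tnfrsf9 by 1.21 ± 0.11, Cd28 by 0.90 ± 0.12 and Cd27 by 0.70 ± 0.14. The adjusted p of these 5 ran from 1.046e-10 to 0.0005437 (edgeR).

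CD4 T cells were above CD8 T cells in 4 receptors, with 23% of all genes called higher. The log2 fold changes were 2.70 ± 0.16 for Tnfrsf4, 1.59 ± 0.09 for Icos, 1.53 ± 0.10 for Tnfrsf18 and 1.05 ± 0.12 for Cd28. Cd27 fell by 1.30 on the log2 scale in CD4 T cells relative to CD8 T cells (SE 0.16, adjusted p = 1.113e-05 by edgeR), where 22.7% of all genes were called lower. Tnfrsf9 had -0.17 ± 0.12 (adjusted p = 0.241 by edgeR), and with barcodes bearing myeloid transcripts let in it had -0.38 (adjusted p = 0.01508).

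NK cells had less of 5 receptors than CD8 T cells, where 19.3% of all genes were called lower, and more Tnfrsf9, where 19.5% were called higher. Tnfrsf4 fell by 5.31 on the log2 scale (SE 0.24), Cd27 by 1.17 (SE 0.14), Icos by 1.10 (SE 0.09), Tnfrsf18 by 0.75 (SE 0.10) and Cd28 by 0.59 (SE 0.12). Tnfrsf9 was higher by 0.42 ± 0.11 (adjusted p = 0.007381 by edgeR), and without the library term its adjusted p was 0.06785. That difference is of summed UMIs, and the median of Tnfrsf9 over cells was lower in NK cells in aC+C, Ac and IgG. The Tnfrsf4 difference is against a level at background.

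**Figure D2:**
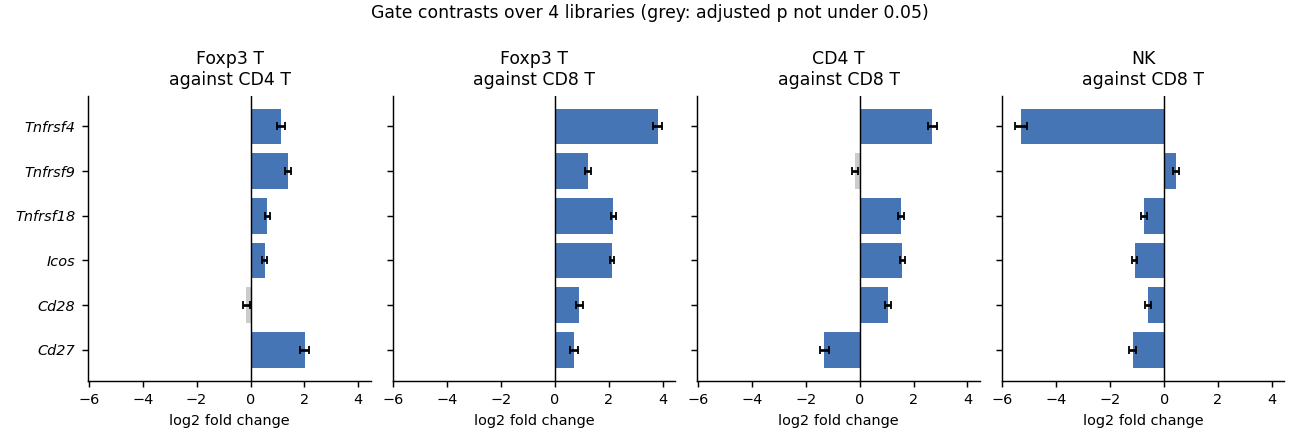
Log2 fold change of each gene in 4 contrasts between gates over 4 libraries; bars are edgeR estimates and error bars 1 standard error. Blue bars passed the adjusted p threshold of 0.05; Cd28 in Foxp3 T against CD4 T and Tnfrsf9 in CD4 T against CD8 T did not, and Tnfrsf9 is the 1 gene higher in NK cells.

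Over the 16 sums, Tnfrsf4, Tnfrsf18, Icos and Cd28 had similar patterns of log2(CPM + 10). Pearson's r was 0.99 between Tnfrsf18 and Icos, 0.99 between Tnfrsf4 and Icos and 0.95 between Tnfrsf18 and Cd28. Tnfrsf9 had r of 0.29 to 0.68 with the other 5, and its highest was with Cd27. The points share libraries and gates, so these are descriptions. Among 5398 genes of at least 20 CPM on average, those most like Tnfrsf4 were Sla, an adaptor that damps T cell receptor signalling, Mif4gd, and Cd2, an adhesion receptor of T cells (r = 0.99 each). Those most like Tnfrsf18 were Icos itself, Got1, an aminotransferase, and Peli1, a ubiquitin ligase (r = 0.99 each). For Icos they were Tnfrsf18, the cytochrome gene Cyb5a and Mif4gd (r = 0.99 each). Hif1a, the oxygen-sensing transcription factor, the kinase gene Plk3 and the transcription factor gene Ets1 were most like Cd28 (r = 0.98 each). For Tnfrsf9 they were Pla2g16 (r = 0.95), Nfil3 and Dpm2 (r = 0.94 each), of which Nfil3 encodes a transcription factor needed for NK cell development. For Cd27 they were Sept7 (r = 0.96), Anxa11 and Ptprcap (r = 0.95 each).

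The receptors were often found in the same Foxp3 T cell. With each cell thinned to 5000 UMIs, leaving out shallower cells, a Foxp3 T cell had on average 5.32 of the 6 genes in aC+C (94 cells), 5.29 in Ac (167 cells), 5.05 in C (111 cells) and 5.09 in IgG (106 cells). All 6 were found in 46.8% of Foxp3 T cells in aC+C, 50.9% in Ac, 38.7% in C and 38.7% in IgG. The mean was 3.64 to 4.19 genes in CD4 T cells, 2.04 to 2.30 in NK cells, 3.22 to 3.43 in CD8 T cells and 0.141 to 0.269 in macrophages. The ranges of the gates did not overlap. Thinning left out 94 Foxp3 T cells of aC+C, 131 of Ac, 111 of C and 58 of IgG. These shares were not computed with the limit on Ncr1 and Klrb1c. They also depend on how often each gene was found by itself, and whether the genes go together within cells was not tested.

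The ligands of these receptors were measured in the same gates and in macrophages. Cd86, a ligand of CD28, was at 173 CPM in aC+C, 178 CPM in Ac, 156 CPM in C and 207 CPM in IgG in C1q macrophages. The ligand genes of OX40 (Tnfsf4), 4-1BB (Tnfsf9) and CD27 (Cd70) were seen in CD4 T cells, at 8.43 to 29.8 CPM, 18.3 to 30.9 CPM and 18.3 to 35.6 CPM. Tnfsf18, the ligand gene of GITR, had at most 4 UMIs in any of the gates of a library. Of 7 ligand genes, 6 were tested. In Foxp3 T against CD4 T cells 4 fell (Tnfsf4, Cd70, Icosl and Tnfsf9, the last by 1.25 on the log2 scale), Cd80 was 2.82 times higher and Cd86 had -0.54 ± 0.22 (adjusted p = 0.09907 by edgeR). Tnfsf4 fell by 3.58 and Cd70 by 2.17. The list's median log2 fold change was -1.70, against 0.03 over all genes tested, of which 10.9% were called higher and 8.56% lower. In CD4 T against CD8 T cells 4 of 6 rose, beside 23% of all genes, with Cd70 at 3.55 ± 0.49 and Tnfsf9 at 1.97 ± 0.27. The median was 1.45 against 0.01 over all genes. Foxp3 T against CD8 T cells had 1 higher and 1 lower of 6, beside 23.8% and 23.2% of all genes, and NK against CD8 T cells 1 higher and 2 lower, beside 19.5% and 19.3%, so these counts say nothing particular of the ligands. Dendritic cells also carry several of these ligands. The summed level of the 8 dendritic cell markers was 554 to 1725 CPM in Foxp3 T cells and 399 to 1995 CPM in CD4 T cells. Of 6 such markers tested in Foxp3 T against CD4 T cells none rose and 2 fell, Fscn1 by 2.03 and Ccr7 by 1.26, and in CD4 T against CD8 T cells 3 rose. Their part in the ligand differences was not tested.

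Other receptor genes of the same cells did not all follow the 6; here too, rose and fell mean an adjusted p under 0.05 by edgeR. Of 14 other costimulatory and accessory receptors tested, 5 rose and 6 fell in Foxp3 T against CD4 T cells (median -0.60), where 10.9% of all genes rose and 8.56% fell. Tnfrsf8, which encodes CD30, rose by 2.27 ± 0.54, whereas Cd40lg, the T helper ligand of CD40, fell by 3.29 and Cd226, an activating receptor shared with NK cells, fell by 1.96. Of 9 inhibitory receptors tested, 2 rose and 2 fell. Ctla4 rose by 1.21 ± 0.10 and Tigit by 0.78 ± 0.25, while Cd96 fell by 1.78 and Pdcd1, which encodes PD-1, by 0.99. Among 18 genes of effector regulatory T cells tested, 13 rose and none fell (median 1.16), with Itgae at 3.37 ± 0.28, Lrrc32 at 2.89 ± 0.28 and Klrg1 at 2.89 ± 0.20. In Foxp3 T against CD8 T cells 17 of those 18 rose (median 2.78), beside 23.8% of all genes. In CD4 T against CD8 T cells 15 of the 18 rose and 1 fell (median 1.53), beside 23% and 22.7% of all genes. The rise against CD8 T cells was thus not particular to the Foxp3 T gate. The CD4 T gate, with medians of 4892.5 to 5971 UMIs, may hold regulatory T cells whose Foxp3 was not captured. Their part in the rise was not tested.

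Of 28 signalling genes downstream of the receptors, 1 rose, 7 fell and 20 did not pass the test in Foxp3 T against CD4 T cells (median -0.06), where 10.9% of all genes rose and 8.56% fell. Among those that fell were the adaptor gene Grap2, which fell by 1.08, and Prkcq, a kinase gene downstream of CD28, which fell by 1.00. Of 14 survival and growth genes, 5 rose and 6 fell (median -0.03). The interleukin 2 receptor gene Il2ra rose by 2.01 ± 0.12, and the cytokine genes Il4, Il2 and Ifng fell by 3.64, 3.21 and 2.48. In CD4 T against CD8 T cells 16 of the 28 signalling genes rose and 4 fell (median 0.30), beside 23% and 22.7% of all genes, led by the NF-kB target and inhibitor gene Nfkbia at 2.03 ± 0.11 and the adaptor gene Traf1 at 1.40 ± 0.07. In NK against CD8 T cells 7 of the 28 rose and 9 fell (median -0.13), beside 19.5% and 19.3% of all genes. Plcg1, the phospholipase of T cell receptor signalling, fell there by 5.71. Il2ra and Ctla4 each stand in more than 1 of these lists.

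CD8 T cells were split by PD-1 and TIM-3, receptors carried together by exhausted cells. Cells of at least 5000 UMIs with both Pdcd1 and Havcr2 numbered 509 in aC+C, 574 in Ac, 250 in C and 497 in IgG. Those with neither numbered 61 in aC+C, 59 in Ac, 69 in C and 77 in IgG. Tnfrsf4 was at 144 CPM in aC+C, 131 CPM in Ac, 148 CPM in C and 104 CPM in IgG in cells with both, against 29.9 CPM in aC+C, 30.6 CPM in Ac, 55.1 CPM in C and 46.4 CPM in IgG in cells with neither. Every library thus had more Tnfrsf4 in cells with both genes. Tnfrsf9 was at 542 CPM in aC+C, 519 CPM in Ac, 438 CPM in C and 435 CPM in IgG in cells with both, against 73.1 CPM in aC+C, 132 CPM in Ac, 228 CPM in C and 269 CPM in IgG in cells with neither. The classes did not overlap for either gene. Cd28 was at 161 CPM in aC+C, 181 CPM in Ac, 137 CPM in C and 162 CPM in IgG in cells with both, against 214 CPM in aC+C, 183 CPM in Ac, 242 CPM in C and 202 CPM in IgG in cells with neither. It was lower in cells with both in aC+C, C and IgG. In Ac it was even, with intervals for counting error of 172.3 to 190.3 and 148.5 to 223.9 CPM.

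In this split 2 of the 6 receptors rose and 1 fell, where 8.31% of 9133 genes were called higher and 9.71% lower. Tnfrsf4 rose by 1.55 ± 0.18 (adjusted p = 0.0001238 by edgeR) and Tnfrsf9 by 1.39 ± 0.27 (adjusted p = 0.00419), while Cd28 fell by 0.52 (SE 0.12, adjusted p = 0.01092). Tnfrsf18 had 0.39 ± 0.14 (adjusted p = 0.07821 by edgeR), Icos 0.32 ± 0.13 (adjusted p = 0.1288) and Cd27 -0.05 ± 0.15 (adjusted p = 0.8876). Single libraries decided 3 of these calls: without Ac Tnfrsf9 had 1.27 (adjusted p = 0.07426), without C Cd28 had -0.37 (adjusted p = 0.09928), and without IgG Tnfrsf18 had 0.56 (adjusted p = 0.0193, all by edgeR). Median UMIs per cell were 12620.5 to 16794 in cells with both genes and 7342 to 8399 in cells with neither, so depth differs between the classes, and its part in the result was not tested.

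**Figure D3:**
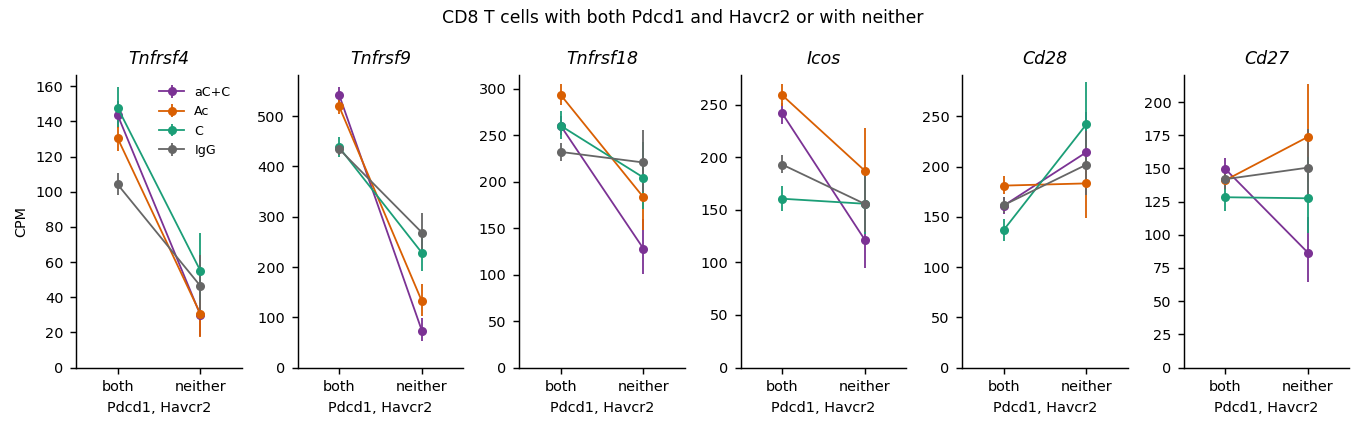
Level of each gene in CPM in CD8 T cells with both Pdcd1 and Havcr2 and in those with neither. Each line is 1 library with exact 95% Poisson intervals for counting error. Tnfrsf4 and Tnfrsf9 are higher in cells with both in all 4 libraries. Cd28 is lower in aC+C, C and IgG and even in Ac, and the lines of Cd27 run both ways.

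Between the groups there is 1 library each, so ratios of CPM are given with exact 95% intervals that cover counting error only, and no test. Of 24 pairs of receptor and gate, 23 had at least 50 UMIs over both libraries; Tnfrsf4 in NK cells did not. A ratio was counted if it was at least 1.5 times higher or lower and its interval did not hold 1. The 3 comparisons with IgG share that library, and the 2 with Ac and C share aC+C.

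Foxp3 T cells had more of all 6 receptors in aC+C and in Ac than in IgG, by ratios under 1.5 except for Cd27. The ratio of Cd27 was 1.43 (1.23 to 1.66) for aC+C and 1.53 (1.34 to 1.75) for Ac, where 3.99% of genes were counted higher in Ac. That of Tnfrsf9 was 1.36 (1.27 to 1.46) for aC+C and 1.49 (1.40 to 1.59) for Ac. Tnfrsf4, Tnfrsf18, Icos and Cd28 had 1.15 to 1.20 in aC+C and 1.17 to 1.34 in Ac. In C the 6 ratios were 0.873 to 0.996. Against C, Cd27 was higher in aC+C by 1.54 (1.32 to 1.79), where 3.19% of genes were counted higher.

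With cells of at most 1 UMI of Ncr1 and Klrb1c the ratios of aC+C and Ac to IgG were closer to 1. Tnfrsf4 had 1.01 (0.954 to 1.06) in aC+C and 1.09 (1.04 to 1.14) in Ac. Tnfrsf9 had 1.31 (1.22 to 1.41) in aC+C and 1.43 (1.33 to 1.53) in Ac, and Cd27 1.26 (1.08 to 1.48) in aC+C and 1.37 (1.19 to 1.57) in Ac. Tnfrsf18 had 1.07 (1.0 to 1.145) in aC+C and 1.17 (1.10 to 1.24) in Ac. Icos had 1.05 (0.970 to 1.13) in aC+C and 1.17 (1.09 to 1.25) in Ac, and Cd28 1.08 (0.946 to 1.23) in aC+C and 1.07 (0.949 to 1.20) in Ac. The intervals of Tnfrsf4 and Icos in aC+C and of Cd28 in both thus held 1. No receptor in Foxp3 T cells was then past 1.5, for Cd27 in aC+C against C (1.41, 1.20 to 1.65) too. Averaged over cells rather than summed, Cd27 had 1.25 in Ac against IgG and 1.21 in aC+C against C. The part of the dendritic cell markers in the Foxp3 T ratios was not tested.

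In CD4 T cells aC+C and C had less Tnfrsf4, Tnfrsf9, Tnfrsf18 and Icos than Ac and IgG. Median UMIs per CD4 T cell were also lower there, at 4893 in aC+C and 4892.5 in C, against 5971 in Ac and 5497 in IgG. The part of depth was not tested. Icos was at 0.805 (0.732 to 0.885) of IgG in aC+C and at 0.782 (0.711 to 0.859) in C, neither past 1.5. Tnfrsf4 in aC+C was at 0.586 (0.536 to 0.641) of IgG, where 9.43% of genes were counted lower, and at 0.563 (0.516 to 0.614) of Ac, where 6.22% were. Over 11 alternative settings the ratios were 0.551 to 0.636 and 0.515 to 0.603. The direction was the same under each of these settings. Tnfrsf18 in aC+C was at 0.645 (0.592 to 0.703) of Ac and at 0.695 (0.636 to 0.759) of IgG. The ratio to Ac was 0.569 to 0.712 over the alternatives and was not past 1.5 with no Cd8 UMI allowed or with the mean over cells. Tnfrsf9 in C was at 0.633 (0.556 to 0.721) of IgG, where 5.54% of genes were counted lower, but was not past 1.5 with a mitochondrial maximum of 5% (0.723) or with the mean over cells. Cd27 in aC+C was at 1.63 (1.17 to 2.30) of Ac, on 95 UMIs in aC+C and 59 UMIs in Ac, where 5.2% of genes were counted higher. That ratio was not past 1.5 with no myeloid limit (1.46) or with a mitochondrial maximum of 5%. The summed level of the 8 dendritic cell markers in CD4 T cells, all 8 detected, was 559 CPM in aC+C, 399 CPM in Ac, 1995 CPM in C and 1304 CPM in IgG. That of the 9 NK markers, all 9 detected, was 236 CPM in aC+C, 348 CPM in Ac, 1491 CPM in C and 535 CPM in IgG. With at most 1 UMI of Ncr1 and Klrb1c the ratios of Tnfrsf4 were 0.551 to IgG and 0.552 to Ac, and the part of the dendritic cell markers was not tested.

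NK cells differed in 1 receptor. Cd28 in NK cells was at 74.4 CPM in aC+C, 95.7 CPM in Ac, 102 CPM in C and 129 CPM in IgG. aC+C was at 0.575 (0.490 to 0.671) of IgG, where 2.49% of genes were counted lower, and the ratio was 0.557 to 0.589 over 11 alternative settings. Ac was at 0.740 (0.664 to 0.824) of IgG and C at 0.792 (0.713 to 0.879). The other 4 receptors measured there had ratios of 0.788 to 1.06 to IgG.

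CD8 T cells, the gate with the most cells, had no receptor past 1.5 in any of the 5 comparisons, and their ratios to IgG were 0.866 to 1.24. The share of all genes past that ratio in either direction was 11% for aC+C, 8.22% for Ac and 4.55% for C against IgG, 6.98% for aC+C against Ac and 8.91% for aC+C against C. Icos was at 1.16 (1.11 to 1.22) of IgG in aC+C, 1.24 (1.18 to 1.30) in Ac and 0.866 (0.812 to 0.923) in C. Tnfrsf4 was at 1.22 (1.14 to 1.30) of IgG in aC+C, 1.03 (0.965 to 1.11) in Ac and 1.23 (1.14 to 1.33) in C. Whether such differences exceed those between libraries of 1 group cannot be told, since no group has a second library.

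**Figure D4:**
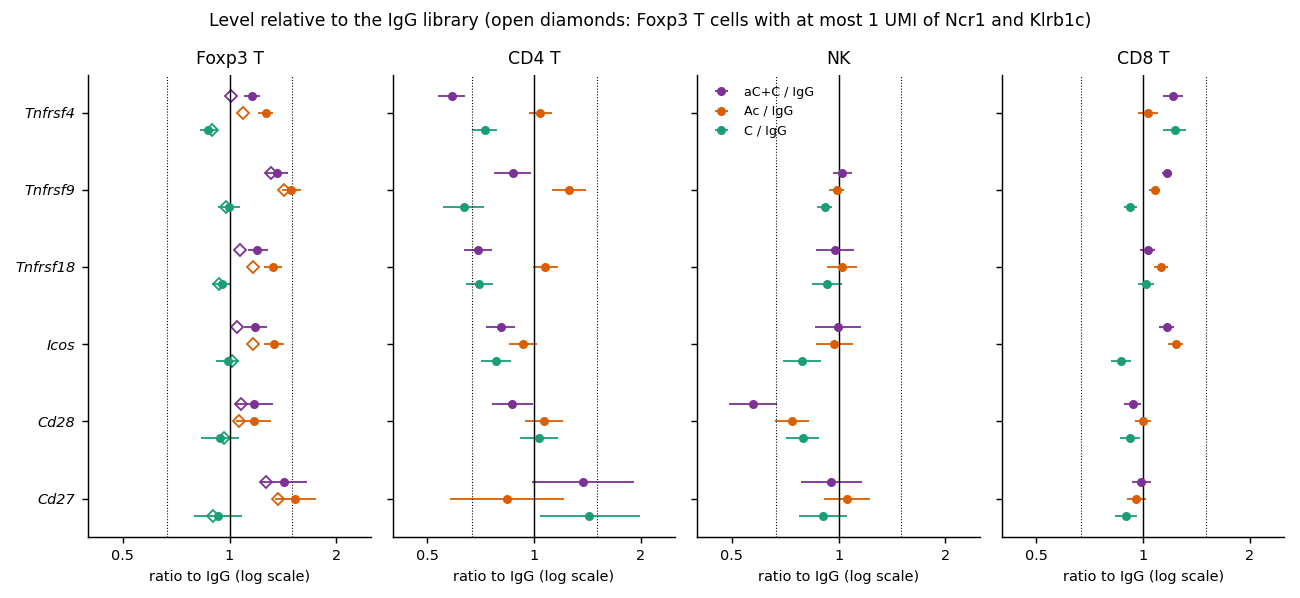
Ratio of each gene's CPM to that of the IgG library (log scale), by gate; circles are ratios with exact 95% intervals for counting error, and dotted lines mark 1.5 times higher and lower. Open diamonds give Foxp3 T cells with at most 1 UMI of Ncr1 and Klrb1c, where the ratios of aC+C and Ac are closer to 1. Tnfrsf4 of aC+C in CD4 T cells and Cd28 of aC+C in NK cells lie farthest to the left.

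Outside the lymphocyte gates, Tnfrsf9 was higher in the macrophages of aC+C and Ac than in those of C and IgG. It was at 89.7 CPM in aC+C (954 UMIs), 104 CPM in Ac (1024 UMIs), 32.5 CPM in C (283 UMIs) and 33.0 CPM in IgG (100 UMIs). The ratio to IgG was 2.72 (2.21 to 3.37) in aC+C, where 7.32% of genes were at least 1.5 times higher, 3.16 (2.57 to 3.92) in Ac, where 3.69% were, and 0.984 (0.780 to 1.25) in C. In IgG 1 cell held 25% of the UMIs. After thinning, 8.29% of macrophages had a Tnfrsf9 UMI in aC+C, 7.36% in Ac, 2.47% in C and 2.82% in IgG, and unthinned the shares were 29.3% in aC+C, 25.8% in Ac, 16.4% in C and 12.9% in IgG. The gate required Cd3d, Cd3e, Cd3g, Ncr1 and Klrb1c to be at 0. Tnfrsf4, on 8 to 25 UMIs per library, did not follow: it was at 2.35 CPM in aC+C, 2.24 CPM in Ac, 1.84 CPM in C and 2.64 CPM in IgG. Tnfrsf18 went the other way in aC+C, at 0.487 (0.307 to 0.784) of IgG, where 3.4% of genes were counted lower. That ratio rests on 53 UMIs in aC+C and 31 UMIs in IgG. In Ac (0.657, 0.423 to 1.04) and C (0.628, 0.398 to 1.01) the intervals of Tnfrsf18 held 1.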

How the data were processed

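Cells of 4 mouse libraries were captured in droplets with 10x Genomics 3′ reagents, named v2 in the labels' protocols. Per the submitters' processing notes reads were handled with Cell Ranger 2.1.1 on mm10, whereas the deposited matrix headers name software version 3.0.2; the annotation release is not given in the sources used here. As deposited, the matrices contain raw UMI counts by gene and barcode, unfiltered and not normalized by the authors; the deposited barcode and gene lists hold other data, names only. Total counts were 61519049 to 75665201 UMIs per library, and 3789 to 4626 barcodes had at least 1000.

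Gates on raw UMIs were: at least 2 Cd3d, Cd3e and Cd3g UMIs for T cells, with at least 1 Foxp3 and at most 1 Cd8a and Cd8b1 UMI (Foxp3 T), at least 1 Cd4, 0 Foxp3 and at most 1 Cd8 UMI (CD4 T), or at least 1 Cd8a and 1 Cd8b1 with 0 Cd4 and 0 Foxp3 UMIs (CD8 T). NK cells had at most 1 Cd3 UMI and at least 2 of Ncr1 and Klrb1c. All 4 had under 5 UMIs of 8 myeloid genes. C1q macrophages had at least 10 UMIs of C1qa, C1qb and C1qc. Doublets were left in; removing the cells with the highest scores of the Scrublet function of scanpy 1.11.5, 0.8% per 1000 cells (94 to 142 per library), was an alternative.

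UMIs were summed per gate and library and tested with edgeR 4.0.16 in R 4.3.3 (TMM, filterByExpr, library block); DESeq2 1.42.0 was an alternative. The test was checked on simulated data. Ratios used exact conditional binomial, levels exact Poisson and shares Clopper-Pearson 95% intervals, which cover counting error only; cells are not replicates. The members and gene lists were chosen with earlier results of these data known. Named were the 6 receptors, the 3 genes most like each, all ligands, and up to 4 genes past the threshold per list and gate contrast. Lists of marker genes of other cell types were summed per gate.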

Additional observations from a re-analysis of the deposited data

Results flagged for a closer look

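In 4 cases a receptor was lower by more than 1.5 times in 1 gate while the interval for another gate lay above 1. Tnfrsf4 in aC+C was at 0.586 of IgG in CD4 T cells (0.536 to 0.641), but at 1.15 in Foxp3 T cells (1.10 to 1.22) and at 1.22 in CD8 T cells (1.14 to 1.30). Against Ac it was at 0.563 in CD4 T cells (0.516 to 0.614) and at 1.18 in CD8 T cells (1.10 to 1.26). Cd28 in aC+C was at 0.575 of IgG in NK cells (0.490 to 0.671) and at 1.17 in Foxp3 T cells (1.03 to 1.32). With at most 1 UMI of Ncr1 and Klrb1c the Foxp3 T ratios to IgG were 1.01 for Tnfrsf4 (0.954 to 1.06) and 1.08 for Cd28 (0.946 to 1.23), so 2 of the 4 cases, those resting on Foxp3 T cells, were lost. The intervals cover counting error only, and with 1 library a group the difference between gates was not tested.

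Macrophages, used for the background, held a Tnfrsf9 signal above that of the IgG library, 2.72 times in aC+C and 3.16 times in Ac. Over 11 alternative settings the ratios were 2.57 to 3.45 in aC+C, 2.83 to 3.99 in Ac and 0.941 to 1.13 in C.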

How the results depend on the processing

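Of 438 alternative values for single receptors in the gate contrasts and the PD-1 and TIM-3 split, 429 kept their direction and side of the threshold. Cd27 in the split, not called, was between -0.248 (without aC+C) and 0.0931 (without Ac) with 1 library left out, and changed sign without Ac and without IgG. The count in Foxp3 T against CD4 T cells was 3 with no Cd8 limit, a setting chosen after seeing the data, against 5. Leaving out 1 library gave 1154 (without Ac) to 1579 genes there, against 1923, and 2 to 4 receptors in the split, against 3. The library block bears on pairing: without it Tnfrsf9 in NK against CD8 T cells had an adjusted p of 0.06785 (0.41 on the log2 scale), and no other receptor's call changed. DESeq2 gave the same counts of receptors.

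Counts of ratios past 1.5 were small and moved. For Ac against IgG the count of 1 became 0 at a mitochondrial maximum of 5%, with at least 2 Foxp3 UMIs, with at most 1 UMI of Ncr1 and Klrb1c, with doublets removed or with the mean over cells; it became 5 with no Cd8 limit and 2 without the cell of most UMIs. For C against IgG the count of 1 became 2 at 3000 UMIs, 3 with no myeloid limit and 0 with the mean over cells. For aC+C against C the count of 1 became 0 at 5% mitochondrial UMIs, with the limit on Ncr1 and Klrb1c or with the mean over cells, and 2 with no myeloid limit. The causes were not tested. Of 1320 single ratios under alternatives, 103 moved beyond their interval. Counting error is wide for Cd27 in CD4 T cells, with 59 to 104 UMIs per library.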

Other observations

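Many UMIs of the receptors lay outside the gates. T cell barcodes with myeloid transcripts numbered 190 in aC+C, 139 in Ac, 470 in C and 264 in IgG, with medians of 20955 to 29681.5 UMIs. They held 9.12% to 12.6% of each receptor's UMIs in aC+C, 6.13% to 8.77% in Ac, 28.9% to 32.6% in C and 14.8% to 16.5% in IgG. Barcodes with both Foxp3 and Cd8 transcripts numbered 42 in aC+C, 47 in Ac, 125 in C and 116 in IgG. Their medians were 16571 to 23877 UMIs, against 4999.5 to 6791.5 in the Foxp3 T gate. Whether they are doublets was not tested. Tnfrsf4 in these barcodes was at 722 CPM in aC+C, 815 CPM in Ac, 708 CPM in C and 684 CPM in IgG, between the Foxp3 T and CD8 T gates in every library.

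Dividing CD8 T cells were set beside others by Mki67, a marker of proliferation. Icos in cells with at least 2 Mki67 UMIs was at 188 CPM in aC+C, 180 CPM in Ac, 123 CPM in C and 158 CPM in IgG, against 262 CPM in aC+C, 286 CPM in Ac, 200 CPM in C and 233 CPM in IgG in cells with none. Icos was thus lower in the dividing cells of every library, as were Tnfrsf9, Tnfrsf18, Cd28 and Cd27. Tnfrsf4 was lower in the dividing cells of aC+C (130.3 against 141.4 CPM), C (120.6 against 152.5 CPM) and IgG (85.05 against 140.3 CPM). In Ac it was even, at 112 CPM in dividing cells, against 109.7 CPM in cells with none. Its intervals for counting error overlapped in aC+C and Ac. Tnfrsf9 in CD8 T cells with Tcf7, a gene of memory-like cells, was at 256 CPM in aC+C, 278 CPM in Ac, 297 CPM in C and 374 CPM in IgG, against 520 CPM in aC+C, 472 CPM in Ac, 415 CPM in C and 437 CPM in IgG in cells without it. These values were not tested, and cells with Mki67 had medians of 20470 to 22550 UMIs, against 9255 to 11159.5 in cells without.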
